A study of Homo sapiens with 12 samples.

Results

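Genes listed as inhibitors of signaling from the B-cell receptor (BCR) were followed in mantle cell lymphoma (MCL) cell lines treated with ironomycin and ibrutinib. They were chosen by name, with earlier results of these data known. They comprise 8 receptors, CD22, CD72, FCGR2B, LILRB1, FCRL1, FCRL2, FCRL3 and FCRL5, and 2 phosphatases, PTPN6 and INPP5D. These 10 genes were all found among the 63677 Ensembl genes of the count table, and all 10 were among the 18674 genes that passed the filter on low counts. RNA-seq of polyadenylated RNA covered 12 libraries from the established MCL lines JEKO1, JVM2 and MAVER1, each kept as untreated control or treated for 48 h with ironomycin, with ibrutinib or with both drugs. Ironomycin, which sequesters iron in lysosomes, was given to JEKO1 at 50 nM and to the other two lines at 250 nM. Ibrutinib, an inhibitor of the BCR kinase BTK, was given at 0.5 μM to JEKO1, at 1.5 μM to JVM2 and at 6.25 μM to MAVER1. The dose therefore varied with the line, and JVM2 was also grown with less serum than JEKO1 and MAVER1. Line, culture and ibrutinib dose thus cannot be told apart, and for ironomycin JEKO1 differed in dose from the other lines. There was 1 library for each line and treatment, so the lines served as replicates (n = 3). The libraries held 35448523 to 38630809 counted reads.

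B cells carry receptors that dampen the signal of the BCR. Most of them hold short tyrosine motifs in their cytoplasmic tails, called ITIMs, which the kinase LYN phosphorylates and which then recruit phosphatases. PTPN6 encodes the protein tyrosine phosphatase SHP-1, which is recruited by CD22 and CD72, and INPP5D encodes the lipid phosphatase SHIP1, which is recruited by the Fc receptor FCGR2B and removes a phosphate from the lipid made by PI3-kinase. Of the Fc receptor-like proteins, FCRL2, FCRL3 and FCRL5 carry such motifs too, some of them beside activating motifs. FCRL1 carries activating motifs instead, so its lower level is not read here as loss of an inhibitor. LILRB1 binds HLA class I molecules.

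The lines were first checked against marker genes. All 7 B-cell markers, among them MS4A1, CD79A, CD79B, PAX5, CD37 and CD74, were at 1 CPM or more in every library, whereas the summed level of 7 T and NK cell markers was at most 9.85 CPM and that of 6 myeloid markers at most 9.24 CPM. CPM, the usual unit of reads relative to library size, were taken after TMM scaling, which adjusts each library for its composition. JEKO1 and MAVER1 expressed the 3 MCL markers CCND1, CD5 and SOX11. In JVM2, CCND1 was present but SOX11 had 0 reads in every library, and CD5 was at most 0.0549 CPM, so this line lacked those defining markers.

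Which lines expressed each gene was asked first. A gene was taken as expressed in a line where its level was at least 1 CPM in each of the line's 4 libraries, and as near the floor where each of the 4 held at most 3 reads, and as low otherwise. JEKO1 expressed 8 of the 10 genes, with FCRL1 and FCRL3 low. JVM2 expressed 7, with FCRL1, FCRL2 and FCRL3 near the floor. MAVER1 expressed 6, with FCRL1, FCRL2, FCRL3 and LILRB1 low. CD22, CD72, FCGR2B, FCRL5, PTPN6 and INPP5D were expressed in all 3 lines. Judged on the control library alone, JEKO1 and MAVER1 expressed all 10 and JVM2 expressed 7, and at a minimum of 0.5 CPM the numbers were 10 in JEKO1, 7 in JVM2 and 8 in MAVER1.

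Levels were compared between genes per kilobase of exon. In the JEKO1 control library PTPN6 stood highest at 60.3 CPM per kilobase, followed by INPP5D at 29.8, CD72 at 28.2 and FCGR2B at 13.1 CPM per kilobase. CD22 reached 4.35, FCRL5 2.82, LILRB1 2.01 and FCRL2 1.53 CPM per kilobase in that library, with FCRL1 at 0.990 and FCRL3 at 0.342. PTPN6 also led in the JVM2 control library, at 149 CPM per kilobase, but there CD22 came next at 54.8, ahead of INPP5D at 41.0, FCGR2B at 13.1, LILRB1 at 8.37, FCRL5 at 1.57 and CD72 at 1.28 CPM per kilobase. In the MAVER1 control library the order was PTPN6 at 25.0, INPP5D at 22.6, CD72 at 14.6, CD22 at 9.52, FCGR2B at 7.46, FCRL5 at 4.02 and FCRL2 at 2.39 CPM per kilobase, with FCRL1, LILRB1 and FCRL3 under 1. Each of these control levels is 1 library, and neighbours in the order were not tested against each other.

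**Figure D1:**
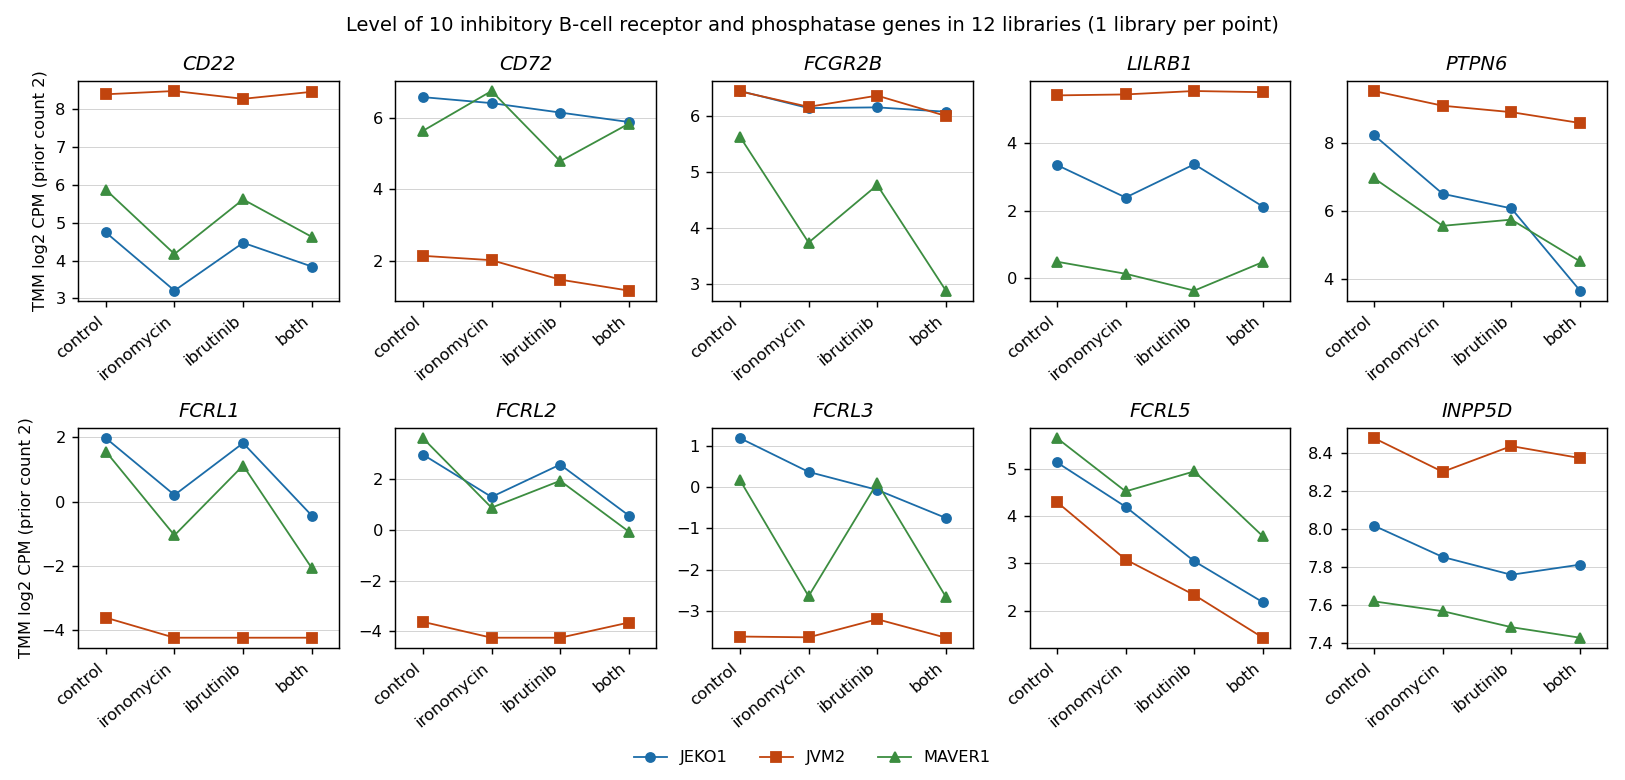
Level of each gene (y axis, log2 CPM after TMM scaling, with a prior count of 2) in the control, ironomycin, ibrutinib and both-drug library (x axis) of JEKO1 (circles), JVM2 (squares) and MAVER1 (triangles). Each point is 1 library, the lines join the libraries of 1 cell line, and each panel has its own y axis. CD22, LILRB1 and PTPN6 sat highest in JVM2, CD72 and FCRL1 to FCRL3 sat lowest there, and FCRL5 was lowest with both drugs in each line.

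Differences between the lines were then tested over the 4 libraries of each line, with treatment in the model. The test was edgeR's quasi-likelihood test, with p-values adjusted over all 18674 genes by the Benjamini-Hochberg method, and genes counted as called when the adjusted p was under 0.05 and the log2 fold change was 1 or more in either direction. The error in these tests is how unlike the treatment changes were between the lines, since no line had a second untreated library. It does not measure the spread between cultures of a line. JVM2 against JEKO1 called 7 of the 10 genes, 4 lower and 3 higher, where 23.9% of all tested genes were called lower and 22.8% higher. JVM2 against MAVER1 called 9, 5 lower and 4 higher, against 18.5% and 21.4% of all tested genes. MAVER1 against JEKO1 called 5, 3 lower and 2 higher, against 19.1% and 15.1%.

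CD22, a sialic acid-binding receptor also known as Siglec-2, stood highest in JVM2. It was at 338, 358, 311 and 353 CPM in the control, ironomycin, ibrutinib and both-drug libraries of JVM2. In JEKO1 the 4 libraries were at 26.8, 9.18, 22.1 and 14.3 CPM, and in MAVER1 at 58.6, 18.0, 49.1 and 24.7 CPM, so that the lowest JVM2 library lay above every library of the other lines. CD22 was 21.0-fold higher in JVM2 than in JEKO1 (log2 fold change 4.39, SE 0.30, edgeR adjusted p = 1.34e-07) and 10.3-fold higher than in MAVER1 (3.37, SE 0.29, adjusted p = 1.04e-06). It was also 2.04-fold higher in MAVER1 than in JEKO1 (log2 fold change 1.03, SE 0.27, edgeR adjusted p = 0.00546), although the libraries of those lines overlapped. This call was lost under scaling by library totals (0.85), without the control libraries and without the ibrutinib libraries.

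LILRB1, an immunoglobulin-like receptor for HLA class I, had the widest fitted span between lines among the 5 receptors other than FCRL1, FCRL2 and FCRL3. Its levels were 41.9, 42.8, 45.9 and 44.8 CPM in JVM2, again in the order control, ironomycin, ibrutinib and both drugs. They were 10.1, 5.17, 10.2 and 4.28 CPM in JEKO1, and 1.35, 1.05, 0.727 and 1.35 CPM in MAVER1, where the libraries held 27 to 51 reads. The 3 lines did not overlap, and LILRB1 was 6.15-fold higher in JVM2 than in JEKO1 (log2 fold change 2.62, SE 0.24, edgeR adjusted p = 1.78e-06) and 6.40-fold lower in MAVER1 than in JEKO1 (-2.68, SE 0.29, adjusted p = 9.24e-06). LILRB1 belongs to a family of similar neighbouring genes, and how reads shared between copies were counted is not given in the sources used here.

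CD72, a C-type lectin-like receptor that binds the semaphorin SEMA4D, had the opposite line pattern. JVM2 held 4.34, 3.98, 2.71 and 2.18 CPM of CD72, against 95.5, 85.0, 70.8 and 58.9 CPM in JEKO1 and 49.6, 107.5, 27.5 and 57.0 CPM in MAVER1. Every JVM2 library thus lay below every library of the other lines, which overlapped each other. CD72 was 24.1-fold lower in JVM2 than in JEKO1 (log2 fold change -4.59, SE 0.29, edgeR adjusted p = 6.77e-08), while MAVER1 and JEKO1 differed by -0.47 (SE 0.24, adjusted p = 0.11), which did not pass.

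The phosphatases also differed in level between the lines. PTPN6 was 7.19-fold higher in JVM2 than in JEKO1 (log2 fold change 2.85, SE 0.43, edgeR adjusted p = 0.000102) and 10.9-fold higher than in MAVER1 (3.44, SE 0.43, adjusted p = 2.76e-05). INPP5D differed with a small error but by less than the fold minimum, with a log2 fold change of 0.54 (SE 0.07, edgeR adjusted p = 2.2e-05) between JVM2 and JEKO1 and of 0.87 (SE 0.07, adjusted p = 5.13e-07) between JVM2 and MAVER1. FCGR2B was near-equal in JVM2 and JEKO1 (0.03, SE 0.31, edgeR adjusted p = 0.933, with the sign negative under scaling by library totals) and 3.58-fold lower in MAVER1 than in JEKO1 (-1.84, SE 0.33, adjusted p = 0.000463). FCRL5 was 2.06-fold higher in MAVER1 than in JEKO1 (log2 fold change 1.04, SE 0.23, edgeR adjusted p = 0.00189) and 3.77-fold lower in JVM2 than in MAVER1 (-1.92, SE 0.24, adjusted p = 2.28e-05). The former call was lost under scaling by library totals (0.86), without the ibrutinib libraries and without the both-drug libraries.

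Treatment was examined next, with the line as a block in the model. With both drugs against control, 6 of the 10 genes were called and all 6 were lower, PTPN6, FCGR2B, FCRL1, FCRL2, FCRL3 and FCRL5, where 1.48% of all tested genes were called lower and 4.81% higher. All 10 fitted log2 fold changes were below 0, with a median of -1.72, against a median of 0.05 over all tested genes. Ironomycin against control called 2 of them, FCRL1 and FCRL2, both lower, where 0.0857% of all tested genes were called lower and 0.129% higher. Over the 10 genes the median change on the log2 scale was -1.04 with ironomycin and -0.52 with ibrutinib, and CD72 with ironomycin was the single value above 0 in those comparisons. These comparisons share their control libraries. The paper had already reported CD22 and PTPN6 as downregulated by the combination in this RNA-seq. Since the 10 genes were chosen with such results known, the shares of all tested genes are a description and not a test of the 10. Scaling by library totals in place of TMM moved the median of all genes by 0.12 with both drugs, and the share of calls that were higher from 76.4% to 86.5% with both drugs and from 60.0% to 78.3% with ironomycin.

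**Figure D2:**
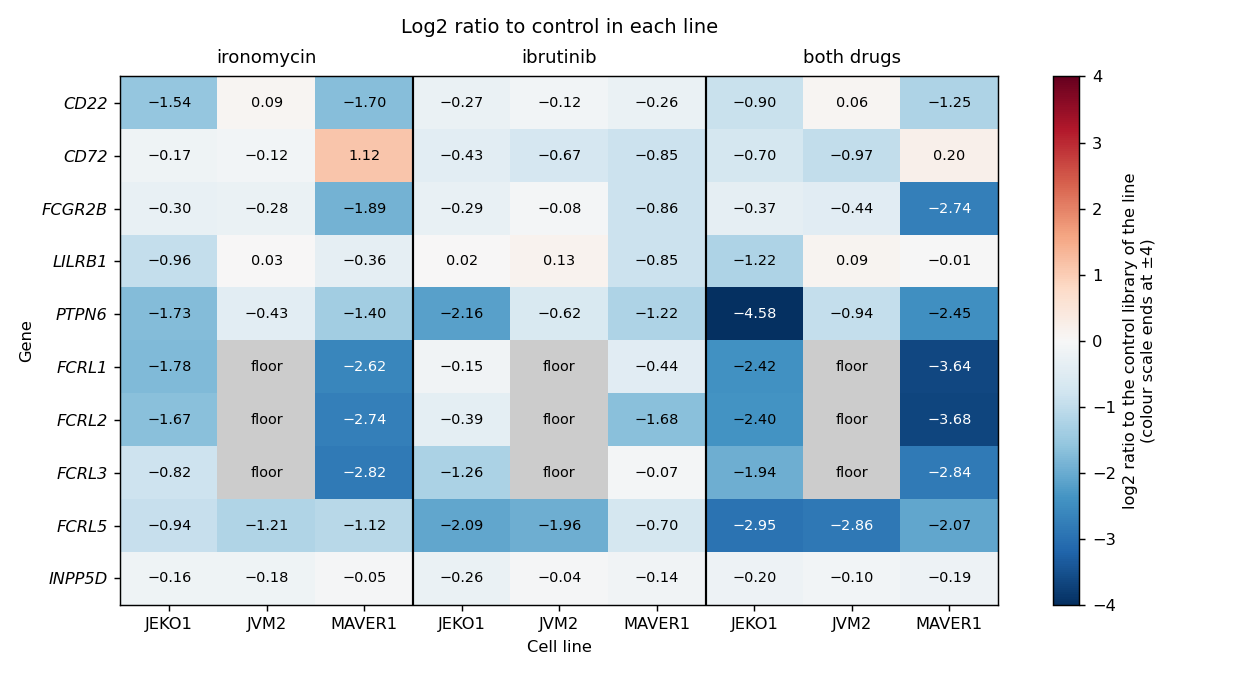
Log2 ratio of each treated library to the control library of the same line (colour and printed value) for the 10 genes (rows) and the 3 lines under ironomycin, ibrutinib and both drugs (columns). Grey cells mark genes near the floor in JVM2. With both drugs PTPN6 reached -4.58 in JEKO1 and FCRL5 lay between -2.95 and -2.07 in the 3 lines. INPP5D stayed between -0.26 and -0.04 in every line and treatment.

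PTPN6 was at 302 CPM in the JEKO1 control library, at 91.1 CPM with ironomycin, at 67.6 CPM with ibrutinib and at 12.6 CPM with both drugs. The MAVER1 libraries stood at 125, 47.4, 53.7 and 22.9 CPM in the same order, and the JVM2 libraries at 745, 551, 484 and 387 CPM. In each line the control library was the highest and the both-drug library the lowest. With both drugs the PTPN6 level was 24.1-fold lower than control in JEKO1 (95% interval 22.1 to 26.3), 5.47-fold lower in MAVER1 (5.09 to 5.89) and 1.92-fold lower in JVM2 (1.88 to 1.96). These intervals are exact binomial ones on the reads of 2 libraries and cover counting error only. The fitted fall with both drugs was 5.83-fold (log2 fold change -2.54, SE 0.50, edgeR adjusted p = 0.00622), lower in 3 of 3 lines. The single drugs gave fitted log2 fold changes of -1.31 for ironomycin (SE 0.46, edgeR adjusted p = 0.137) and -1.46 for ibrutinib (SE 0.47, adjusted p = 1), neither of which passed. Without JEKO1, or without MAVER1, the call with both drugs was lost, and 2 lines then remained in the fit.

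The start regions of PTPN6 are shown because it was the called phosphatase. RefSeq lists a pair of starts for PTPN6, each given as 250 bases before to 50 bases after the start in build GRCh38.p14, 5′ to 3′ on the coding strand. The windows are chr12:6946327-6946626, plus strand for the first and chr12:6951106-6951405, plus strand for the second. Capitals mark matches, on either strand, to letters associated with B-cell transcription factors, namely the octamer ATGCAAAT, then for the factor PU.1 the letters GAGGAAG, for the factor EBF1 the letters CCCNNGGG and for an E-box bound by E2A proteins the letters CAGNTG.
PTPN6 first start: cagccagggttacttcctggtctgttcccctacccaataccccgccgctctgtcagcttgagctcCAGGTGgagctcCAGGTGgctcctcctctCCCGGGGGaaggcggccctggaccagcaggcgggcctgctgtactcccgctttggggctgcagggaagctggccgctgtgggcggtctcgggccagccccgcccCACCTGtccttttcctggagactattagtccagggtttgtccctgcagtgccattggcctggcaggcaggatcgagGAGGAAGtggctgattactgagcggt
PTPN6 second start: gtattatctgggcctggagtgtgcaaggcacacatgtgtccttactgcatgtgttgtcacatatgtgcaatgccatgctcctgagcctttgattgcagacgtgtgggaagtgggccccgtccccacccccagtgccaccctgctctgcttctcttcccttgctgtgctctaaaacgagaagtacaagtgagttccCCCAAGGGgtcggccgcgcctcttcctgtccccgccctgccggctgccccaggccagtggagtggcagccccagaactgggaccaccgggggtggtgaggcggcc
The first window holds 3 E-box matches, 1 EBF1 match and 1 PU.1 match, and the second holds 1 EBF1 match. Of all 35116 promoter windows of this length, 49.9% hold the E-box letters, 19.1% the EBF1 letters, 13.6% the PU.1 letters and 1.77% the octamer, so such matches are common apart from the octamer. None of the 14 windows of the 10 genes holds the octamer. A match describes letters only.

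FCRL5, the Fc receptor-like protein also called FcRH5, was the gene called with both drugs in each fit that left out 1 line. Its level was 35.0, 18.2, 8.19 and 4.47 CPM in the control, ironomycin, ibrutinib and both-drug libraries of JEKO1. In JVM2 it was 19.6, 8.40, 4.98 and 2.64 CPM, and in MAVER1 49.9, 22.9, 30.7 and 11.8 CPM. Each drug alone went with a lower level in each line, and the both-drug library was the lowest in each. The fitted fold change with both drugs was -2.64 on the log2 scale, or 6.24-fold lower (SE 0.28, edgeR adjusted p = 0.00135). Ironomycin alone gave -1.09 (SE 0.26, edgeR adjusted p = 0.0692) and ibrutinib alone -1.54 (SE 0.26, adjusted p = 0.326), which did not pass in edgeR's test although both values were below 0 in 3 of 3 lines. DESeq2 and the fit with no low-count filter called FCRL5 with each drug alone.

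FCRL1 and FCRL2 were measured in JEKO1 and MAVER1, since in JVM2 each had at most 1 read per library. FCRL1 was at 3.89, 1.10, 3.49 and 0.686 CPM in JEKO1 and at 2.90, 0.430, 2.13 and 0.185 CPM in MAVER1, in the order control, ironomycin, ibrutinib and both drugs. FCRL2 was at 7.71, 2.39, 5.86 and 1.42 CPM in JEKO1 and at 12.1, 1.77, 3.74 and 0.897 CPM in MAVER1. For both genes the ironomycin and both-drug libraries lay below the control and ibrutinib libraries within each of these lines. With both drugs the fitted fold changes were -3.07 for FCRL1 (SE 0.35, edgeR adjusted p = 0.00174) and -3.08 for FCRL2 (SE 0.37, adjusted p = 0.00191), lower in 2 of the 2 lines with reads above the floor. With ironomycin alone they were -2.25 for FCRL1 (SE 0.33, edgeR adjusted p = 0.0228) and -2.28 for FCRL2 (SE 0.35, adjusted p = 0.0245). These fitted values rest on JEKO1 and MAVER1, because JVM2 contributed almost no reads, and no fold is given there. Without MAVER1, neither gene was called with both drugs, and with ironomycin alone neither was called without JEKO1 or without MAVER1.

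FCRL3, whose tail carries both activating and inhibitory motifs, had low counts in every line. Its levels were 2.24, 1.24, 0.905 and 0.544 CPM in JEKO1, from 23 to 89 reads, and 1.08, 0.107, 1.02 and 0.106 CPM in MAVER1, from 4 to 39 reads. In MAVER1 the control and ibrutinib libraries stood together above the ironomycin and both-drug libraries, whereas in JEKO1 the ibrutinib library was below the ironomycin one. JVM2 held 1 or 2 reads per library. The fitted log2 fold change with both drugs was -2.31 (SE 0.61, edgeR adjusted p = 0.0186), and the call was lost without JEKO1 and without MAVER1.

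The FCRL starts are shown because these 4 genes were called lower together with both drugs. RefSeq places all 4 in 1 cluster on the minus strand of chromosome 1 in GRCh38.p14, with start windows at chr1:157820071-157820370 for FCRL1, chr1:157777083-157777382 for FCRL2, chr1:157700720-157701019 for FCRL3 and chr1:157552466-157552765 for FCRL5. Capitals mark the same letters as for PTPN6.
FCRL1: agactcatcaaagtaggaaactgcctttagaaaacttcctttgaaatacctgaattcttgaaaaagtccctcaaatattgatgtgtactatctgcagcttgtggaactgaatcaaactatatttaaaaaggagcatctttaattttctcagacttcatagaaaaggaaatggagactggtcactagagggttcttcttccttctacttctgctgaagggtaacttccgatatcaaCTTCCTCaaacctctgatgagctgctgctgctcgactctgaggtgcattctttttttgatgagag
FCRL2: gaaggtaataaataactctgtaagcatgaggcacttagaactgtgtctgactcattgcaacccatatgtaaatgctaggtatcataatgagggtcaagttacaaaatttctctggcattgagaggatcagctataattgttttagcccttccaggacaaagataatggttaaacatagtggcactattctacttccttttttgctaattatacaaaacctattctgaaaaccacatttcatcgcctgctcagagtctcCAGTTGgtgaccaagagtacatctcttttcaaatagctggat
FCRL3: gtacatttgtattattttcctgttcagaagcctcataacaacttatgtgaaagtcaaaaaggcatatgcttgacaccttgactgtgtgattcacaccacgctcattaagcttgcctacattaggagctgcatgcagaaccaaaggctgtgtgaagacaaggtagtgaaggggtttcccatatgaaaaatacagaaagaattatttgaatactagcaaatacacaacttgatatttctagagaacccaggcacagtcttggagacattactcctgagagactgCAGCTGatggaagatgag
FCRL5: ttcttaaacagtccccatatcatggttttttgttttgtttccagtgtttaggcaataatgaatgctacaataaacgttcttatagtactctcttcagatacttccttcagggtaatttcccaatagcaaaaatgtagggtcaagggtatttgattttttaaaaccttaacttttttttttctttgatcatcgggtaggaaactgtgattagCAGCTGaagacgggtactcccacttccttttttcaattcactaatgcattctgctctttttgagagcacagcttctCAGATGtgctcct
FCRL1 holds 1 PU.1 match on the opposite strand and no E-box match. FCRL2 and FCRL3 each hold 1 E-box match and FCRL5 holds 2. None of these 4 windows holds the EBF1 letters.

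FCGR2B, the inhibitory Fc receptor for IgG on B cells, was called with both drugs and had its largest ratio to control in MAVER1. MAVER1 was at 49.6, 13.4, 27.3 and 7.36 CPM, against 87.2, 70.6, 71.3 and 67.5 CPM in JEKO1 and 86.9, 71.7, 82.4 and 64.1 CPM in JVM2. The both-drug library was 6.74-fold below control in MAVER1 (95% interval 5.94 to 7.67), 1.29-fold in JEKO1 (1.23 to 1.36) and 1.36-fold in JVM2 (1.28 to 1.43). The fitted log2 fold change over the 3 lines was -1.13 (SE 0.37, edgeR adjusted p = 0.0443), and the call was lost when any 1 of the lines was left out and when libraries were scaled by their totals. FCGR2C, a near-identical neighbour, had the pattern most like it, with a root mean square difference of 0.21 over the 9 log2 ratios to control. FCGR2C was at 16.9, 3.79, 9.08 and 2.11 CPM in MAVER1, and how reads shared by these copies were counted is not given in the sources used here, so the FCGR2B values are uncertain to that extent.

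CD22, CD72 and LILRB1 were not called by edgeR's test in any comparison of treatments over the 3 lines. Their fitted log2 fold changes with both drugs were -0.72 for CD22 (SE 0.31, edgeR adjusted p = 0.102), -0.43 for CD72 (SE 0.29, adjusted p = 0.288) and -0.40 for LILRB1 (SE 0.30, adjusted p = 0.341). CD22 with ironomycin was at -1.001 (SE 0.31, edgeR adjusted p = 0.106), and it was called by DESeq2 (-1.04, adjusted p = 0.0473), with no low-count filter and without JVM2. Without JVM2 it was also called with both drugs. INPP5D had the smallest fitted change of the 10 with both drugs, and its levels were 197, 190, 179 and 172 CPM in MAVER1, 259, 231, 217 and 225 CPM in JEKO1 and 356, 315, 346 and 331 CPM in JVM2. Its change with both drugs was -0.17 (SE 0.08, edgeR adjusted p = 0.132), and its treatment changes reversed in sign in some comparisons under scaling by library totals.

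To see how the lines differed, the ironomycin change was fitted per line, as the mean of the change without and with ibrutinib. In JEKO1 5 of the 10 genes were called, all lower, namely CD22, PTPN6, FCRL1, FCRL2 and LILRB1, where 1.68% of all tested genes were called lower and 5.67% higher. In MAVER1 8 were called, 7 lower and CD72 higher, where 2.01% were called lower and 4.34% higher. In JVM2 none was called by edgeR's quasi-likelihood test, where 0.268% were called lower and 0.444% higher. There 1 of the 10 (FCRL5) and 3692 of all 18674 tested genes had an unadjusted p under 0.05 by that test. DESeq2 called FCRL5 in JVM2, and the share of all tested genes that it called there is not given here. Each line has 2 untreated or ibrutinib libraries against 2 with ironomycin, and the error is pooled over the lines. That error comes from how unlike the ibrutinib changes, without and with ironomycin, were between the lines. The spread between cultures of a line is not measured by it, so the per-line values are not replicated within a line.

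**Figure D3:**
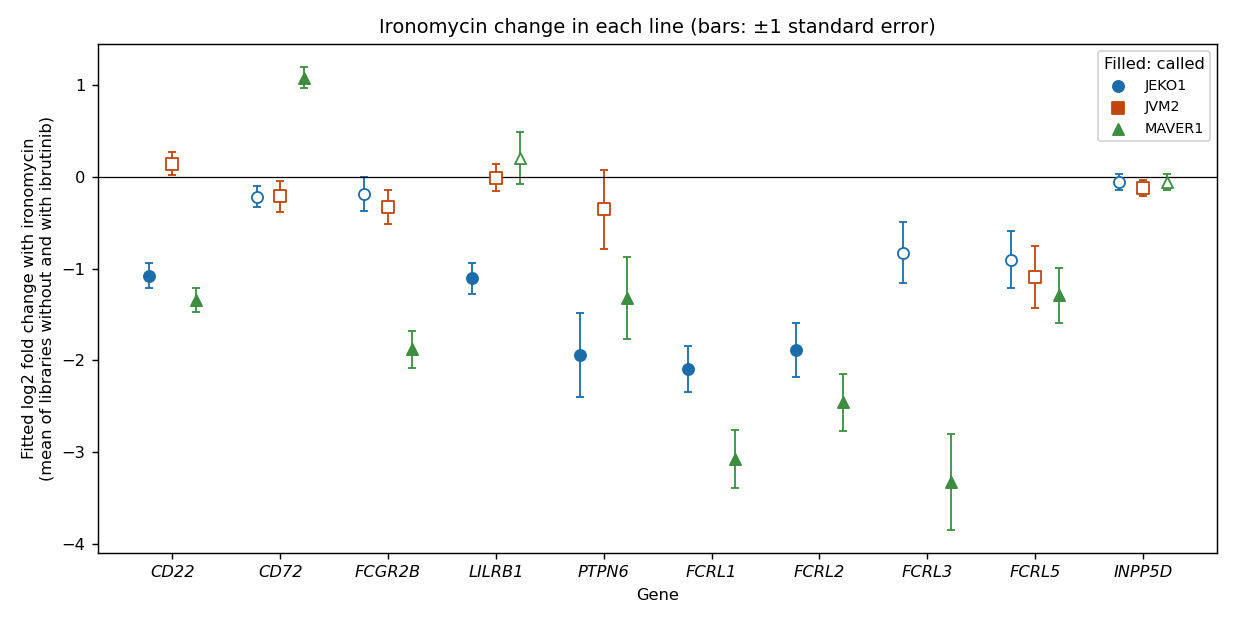
Fitted log2 fold change with ironomycin (y axis) in JEKO1 (circles), JVM2 (squares) and MAVER1 (triangles) for each gene (x axis), with bars of 1 standard error. Filled symbols were called. The FCRL1, FCRL2 and FCRL3 values of JVM2 are left out because that line was near the floor. CD72 was at 1.08 in MAVER1, where CD22 was at -1.34 and FCGR2B at -1.88.

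A test of the difference of the ironomycin change between the 3 lines called 4 of the 10 genes, CD22, CD72, FCGR2B and LILRB1, against 9.38% of all tested genes. CD22 fell with ironomycin in JEKO1 (log2 fold change -1.07, SE 0.14, edgeR adjusted p = 0.000298) and in MAVER1 (-1.34, SE 0.13, adjusted p = 5.91e-05) but was at 0.15 (SE 0.12, adjusted p = 0.56) in JVM2. CD72 was 2.12-fold higher with ironomycin in MAVER1 (log2 fold change 1.08, SE 0.12, edgeR adjusted p = 9.61e-05), against -0.22 (SE 0.11, adjusted p = 0.169) in JEKO1 and -0.21 (SE 0.17, adjusted p = 0.538) in JVM2. FCGR2B fell in MAVER1 (-1.88, SE 0.20, edgeR adjusted p = 9.79e-05), against -0.19 (SE 0.18, adjusted p = 0.468) in JEKO1. LILRB1 fell in JEKO1 (-1.10, SE 0.17, edgeR adjusted p = 0.000814), against -0.01 (SE 0.15, adjusted p = 1) in JVM2 and 0.21 (SE 0.28, adjusted p = 0.626) in MAVER1. The LILRB1 value in MAVER1 rests on opposite log2 ratios at low counts. These were -0.36 without ibrutinib (39 against 49 reads) and 0.84 with it (51 against 27 reads). The difference between lines did not pass for PTPN6 (edgeR adjusted p = 0.237), although JEKO1 was at -1.94, JVM2 at -0.35 and MAVER1 at -1.32. Between JVM2 and MAVER1 alone, which both received 250 nM, the difference was called for CD22, PTPN6, FCGR2B and CD72 (edgeR adjusted p = 0.000686, 0.0191, 0.00711 and 0.00158). Between JEKO1 and MAVER1 alone it was called for FCGR2B and CD72, and between JEKO1 and JVM2 alone for CD22 and LILRB1. The share of all tested genes called in these fits of line pairs is not given here. How many of the 10 genes were called there is therefore not read as a result. JEKO1 received 50 nM, so ironomycin dose and line cannot be told apart where it is compared. JVM2 and MAVER1 shared 250 nM but differed in serum, and their libraries with ibrutinib differed in its dose. With ironomycin alone against control, log2 ratios in MAVER1 and JVM2 were 1.12 and -0.12 for CD72 and -1.89 and -0.28 for FCGR2B. They were -1.70 and 0.09 for CD22 and -1.40 and -0.43 for PTPN6, from 1 library per treatment. What set these lines apart was not tested.

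Ibrutinib alone was compared with control in the same way. Against control, none of the 10 and 0% of all tested genes were called by edgeR's quasi-likelihood test. At an unadjusted p under 0.05 there were 680 of the 18674 tested genes, including PTPN6, FCRL2 and FCRL5. That share is under 0.05, the share that unchanged genes alone would give. DESeq2 called 1 of the 10, FCRL5. The share of all tested genes that DESeq2 called is not given here, in this or the other comparisons. How many of the 10 it called is therefore not read as a result. A difference of the ibrutinib change between the lines was called for none of the 10 and for 0% of all tested genes. At an unadjusted p under 0.05 there were 466 genes, also a share under 0.05, and 2 of the 10, PTPN6 and FCRL5. For this difference DESeq2 called FCRL5. PTPN6 with ibrutinib was 4.47-fold below control in JEKO1 (95% interval 4.29 to 4.66), 2.33-fold in MAVER1 (2.21 to 2.46) and 1.54-fold in JVM2 (1.51 to 1.57). FCRL5 with ibrutinib was 4.27-fold below control in JEKO1 (3.78 to 4.83), 3.93-fold in JVM2 (3.33 to 4.66) and 1.63-fold in MAVER1 (1.51 to 1.76). FCRL2 with ibrutinib was 3.23-fold below control in MAVER1 (2.67 to 3.94) and 1.32-fold in JEKO1 (1.11 to 1.57). The ibrutinib dose differed in each line, from 0.5 μM in JEKO1 to 6.25 μM in MAVER1.

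The combination was compared with each drug. Both drugs against ibrutinib called 3 of the 10 genes, FCRL1, FCRL2 and FCRL5, all lower, where 0.744% of all tested genes were called lower and 3.91% higher. Their log2 fold changes were -2.72 for FCRL1 (SE 0.35, edgeR adjusted p = 0.00393), -1.99 for FCRL2 (SE 0.36, adjusted p = 0.00692) and -1.11 for FCRL5 (SE 0.27, adjusted p = 0.0175). None of these 3 was called without JEKO1 or without MAVER1. Both drugs against ironomycin called none of the 10 by edgeR and 0% of all tested genes, with 1970 genes and 3 of the 10 at an unadjusted p under 0.05, PTPN6, CD72 and FCRL5, and DESeq2 called FCRL5. The PTPN6 value there was -1.23 (SE 0.47, edgeR adjusted p = 0.44) and the FCRL5 value -1.55 (SE 0.27, adjusted p = 0.206).

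How far the combination departed from the sum of the single log2 changes was tested as an interaction. It was called for none of the 10 genes by edgeR and for 0% of all tested genes. At an unadjusted p under 0.05 there were 367 of the 18674 tested genes, a share under 0.05, and 0 of the 10. DESeq2 called 0 of the 10. For FCRL5 the departure was -0.02 (SE 0.37), and the sums of the single log2 ratios were -3.02, -3.18 and -1.83 in JEKO1, JVM2 and MAVER1, compared with -2.95, -2.86 and -2.07 when both drugs were given. For PTPN6 the departure was 0.23 (SE 0.64), with the JEKO1 both-drug ratio of -4.58 differing from the sum of -3.89 by -0.69. The corresponding differences were 0.11 in JVM2, from a sum of -1.06, and 0.17 in MAVER1, from a sum of -2.62. The standard errors show how wide a departure would go undetected at n = 3.

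Related genes, not all of them inhibitors, were read with both drugs against control, the treatment comparison with most calls over the lines. They came from lists chosen with earlier results of these data known. Of 13 other inhibitory receptors, 11 were tested, and 3 were called lower and 0 higher, with a median log2 fold change of -0.29. CD5, a receptor that lowers antigen receptor signaling, fell by 1.84 on the log2 scale (SE 0.24, edgeR adjusted p = 0.00252), with 17.0 CPM in the JEKO1 control and 3.27 CPM with both drugs, and 45.0 and 16.6 CPM in MAVER1. PDCD1, which encodes PD-1, fell by 1.56 (SE 0.35, edgeR adjusted p = 0.0101), from 35.3 to 7.48 CPM in JEKO1, from 7.08 to 3.45 CPM in JVM2 and from 4.15 to 1.85 CPM in MAVER1. LILRB2, also an HLA class I receptor, was called (edgeR adjusted p = 0.032) at under 1 CPM in each library. Among the 4 tested relatives of FCGR2B and the FCRL family, FCGR2A and FCGR2C were called lower and FCRLA was not (-0.13, SE 0.17, edgeR adjusted p = 0.599). FCRLA, an intracellular relative, was at 180 to 330 CPM in all 12 libraries. FCRL4, which lies beside FCRL5, had at most 0.685 CPM and a value of -1.70 (SE 0.76, edgeR adjusted p = 0.133).

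Of 12 other phosphatases 1 was called lower and none higher, with a median of -0.30. The called gene was PTPRO (-1.62, SE 0.39, edgeR adjusted p = 0.013). PTPN11, which encodes SHP-2, the closest relative of SHP-1, was at -0.28 (SE 0.10, edgeR adjusted p = 0.0659), and INPPL1, which encodes SHIP2, the closest relative of SHIP1, was at 0.21 (SE 0.09, adjusted p = 0.104). PTPRC, which encodes CD45, was at -0.97 (SE 0.15, edgeR adjusted p = 0.00346), just under the fold minimum. Of 13 inhibitory adaptors and kinases 2 were called lower and 1 higher, with a median of -0.35. SLA, which encodes an adaptor that promotes degradation of antigen receptors, changed most, from 25.4 to 1.11 CPM in JEKO1 and from 12.9 to 0.739 CPM in MAVER1, with 0 reads in every JVM2 library (-4.33, SE 0.24, edgeR adjusted p = 0.000796). SLA was also the single list gene outside the 10 that was called with ironomycin alone (-2.14, edgeR adjusted p = 0.0115). SLA2, its relative, was called lower (-1.87, SE 0.48, edgeR adjusted p = 0.0165) at 1.63 CPM or less. PAG1, which encodes the membrane adaptor for the kinase CSK, rose by 1.03 (SE 0.26, edgeR adjusted p = 0.0162), from 22.9 to 61.4 CPM in JEKO1 and from 46.8 to 114 CPM in MAVER1, against 4.68 and 4.98 CPM in JVM2. The kinase LYN, which phosphorylates ITIMs, was at -0.78 (SE 0.16, edgeR adjusted p = 0.00727), under the fold minimum.

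**Figure D4:**
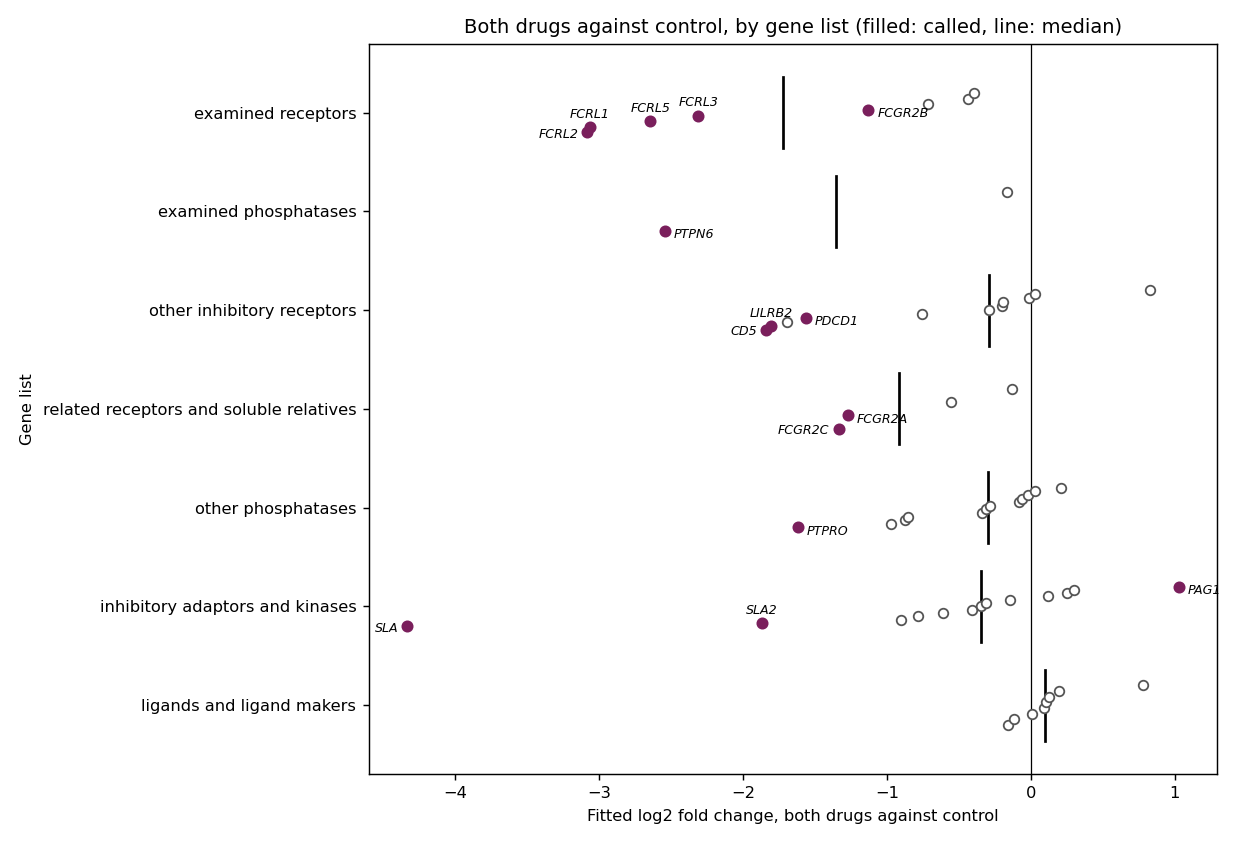
Fitted log2 fold change with both drugs against control (x axis) for each tested gene of 7 lists (y axis), with called genes filled and named and the median of each list as a vertical line. The receptor median was -1.72, and the medians of the lists of other genes lay between -0.91 and 0.10.

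The ligands were read in the same way. Of 8 genes for ligands or their synthesis none was called by edgeR's test, with a median of 0.10, and 1 of them, the sialidase gene NEU1 (0.78, SE 0.20, edgeR adjusted p = 0.0158), was under 0.05 but below the fold minimum. PTPRC, LYN and NEU1 are named here after their values were seen. The difference between the 10 genes and these lists was not tested.

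Other cell identity genes were set beside these values. The summed level of the 7 B-cell markers with both drugs was 3779 CPM against 5074 CPM in the JEKO1 control and 5138 against 6652 CPM in MAVER1, but 7681 against 7610 CPM in JVM2, and none of the 7 was called with both drugs. The summed level of 6 plasma cell markers was 537 against 338 CPM in JEKO1, 1411 against 1092 CPM in MAVER1 and 1914 against 1986 CPM in JVM2, with none called. Of the MCL markers CD5 was called lower and SOX11 higher, among the T and NK cell markers CD3E and CD3G were called lower, and among the myeloid markers LYZ was called lower. Their part in the values of the 10 genes was not tested. In bulk RNA a lower share of cells with a transcript and less of it per cell cannot be told apart.

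PTPN6, CD22 and FCGR2B were lastly matched to all genes of mean at least 1 log2 CPM by the 9 log2 ratios to control. Over 11213 genes the nearest to PTPN6 were HCST, SH2D2A and LILRA4, at root mean square differences of 0.80, 0.80 and 0.92, above the differences found for CD22 and FCGR2B. The nearest to CD22 were SH3TC1, ABI3 and GRK6, at 0.29, 0.34 and 0.36. The nearest to FCGR2B after FCGR2C were PRR7 at 0.40 and ZP3 at 0.41. The 9 ratios share 3 control libraries, so this likeness is a description.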

How the data were processed

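RNA-seq of polyadenylated RNA was analysed for 12 libraries, with groups taken from the treatment and cell line labels. The table the authors deposited holds raw read counts for each Ensembl gene, not normalized, and the submitters' processing notes name STAR, DESeq2 and GRCh37 with no role or version. The counting tool, its strand setting and the annotation release are not given in the sources used here. Reads shared by near-identical genes or by overlapping genes may therefore be split or lost, which bears on FCGR2B and LILRB1. Gene symbols came from a table of Ensembl names and cover 39699 of the 63677 genes. Library totals were 35448523 to 38630809 reads, and the smallest counts set the precision, since 3 reads per library were taken as the floor.

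The count tests used R 4.3.3 and edgeR 4.0.16 (quasi-likelihood test, TMM, filterByExpr, Benjamini-Hochberg adjustment over 18674 genes). Treatment comparisons had treatment and cell line as terms, line comparisons had the same terms, and the ironomycin or ibrutinib change per line used line-specific coefficients. Tests of a difference between lines used 2 coefficients and were called on the adjusted p-value alone. Other calls also needed a log2 fold change of 1 or more in either direction, with 0.05 as the threshold of the adjusted p-value. Libraries were paired by cell line, which served as the block. After removal of treatment means, library deviations correlated at 0.926 to 0.976 for 18 pairs within a line and at -0.705 to -0.127 for 48 pairs of different lines. Nothing names separate cultures within a line. Log2 CPM used a prior count of 2, and ratios of 2 libraries have exact 95% intervals. Levels per kilobase used exon lengths of a GENCODE annotation, length only. Promoter sequences are RefSeq's in GRCh38.p14, and all 10 symbols matched.

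The 10 genes, the gene lists and the tests were chosen with earlier results of these data known. The genes named were the 10, called list genes (at most 3 per list and direction), 6 sequence relatives, and the 3 nearest patterns to PTPN6, CD22 and FCGR2B. Alternatives were other scalings, no filter, DESeq2 1.42.0, no block, other library sets and leaving out each line or treatment. The tests were tested on simulated data before use. Some genes of the lists are not reported here. Figures were drawn with matplotlib 3.10.9.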

Additional observations from a re-analysis of the deposited data

Results flagged for a closer look

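The change with ironomycin differed between the 3 cell lines for 4 of the 10 genes by edgeR's quasi-likelihood test of 2 coefficients. Each line had 1 library per treatment, so the error of this test does not measure the spread between cultures. The adjusted p-value was 0.00194 for CD22 (edgeR), where JEKO1 was at -1.07, JVM2 at 0.15 and MAVER1 at -1.34 on the log2 scale. It was 0.00211 for CD72 (edgeR), where JEKO1 was at -0.22, JVM2 at -0.21 and MAVER1 at 1.08. For FCGR2B it was 0.00698 (edgeR), where JEKO1 was at -0.19, JVM2 at -0.33 and MAVER1 at -1.88. For LILRB1 it was 0.0193 (edgeR), where JEKO1 was at -1.10, JVM2 at -0.01 and MAVER1 at 0.21. The MAVER1 value of LILRB1 rests on log2 ratios of -0.36 without ibrutinib and 0.84 with it, at 27 to 51 reads. The ironomycin dose was lower in JEKO1, 50 nM, than in the other two lines, 250 nM, so it is shared by JVM2 and MAVER1, which lay apart for CD22, CD72 and FCGR2B. Dose and line cannot be told apart between JEKO1 and the others.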

How the results depend on the processing

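The 10 genes were measured in 3 lines with 1 library per treatment, so calls over the lines rest on n = 3, and below about 3 reads per library no level can be read. Counts of the 10 genes called are given for settings that moved them by over 1.5 times. The shares of all tested genes called in those settings are not given beside them. Without the replicate block the count fell to 0 with both drugs against control, with ironomycin against control and with both drugs against ibrutinib, from 6, 2 and 3. With only the 2 groups compared in the fit it was 1 with both drugs against control, 0 with ironomycin and 1 with both drugs against ironomycin. Without the low-count filter, and with DESeq2, it was 4 with ironomycin, 1 with ibrutinib, 1 with both drugs against ironomycin and 1 for ironomycin in JVM2, and DESeq2 gave 1 for the ibrutinib difference between lines. Library totals gave 3 for ironomycin in JEKO1, leaving out the both-drug libraries gave 3 for MAVER1 against JEKO1, and the control library alone put 10 genes as expressed in MAVER1. Leaving out 1 line at a time gave 1 to 6 with both drugs against control, 0 to 3 with ironomycin, 0 to 1 with ibrutinib, 0 to 4 with both drugs against ibrutinib and 2 to 4 for the ironomycin difference between lines, with fewer samples in each fit. DESeq2 also lost PTPN6 for ironomycin in MAVER1. Of the other count results, 93 stayed within 1.5 times.

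None of the values that changed sign had been called, and the cause was not tested. Under library totals INPP5D came to 0.020 with both drugs against ironomycin, 0.079 against ibrutinib and 0.085 with ironomycin in JEKO1. The same scaling gave the FCRL5 departure as 0.0068, FCRL2 and LILRB1 with ironomycin in JVM2 as 0.050 and 0.056, and FCGR2B in JVM2 against JEKO1 as -0.20 (-0.024 without the ibrutinib libraries). Without the replicate block LILRB1 was at 0.090 with ibrutinib and CD22 at 0.038 with both drugs against ibrutinib, and with the 2 groups alone LILRB1 was at -0.00172 with both drugs against ironomycin. Leaving out 1 line gave LILRB1 from -0.74 to 0.061 with both drugs, -0.24 to 0.070 with ibrutinib, -0.054 to 0.16 with both drugs against ironomycin and -0.58 to 0.21 against ibrutinib. It gave CD72 from -0.15 to 0.60 with ironomycin and -0.29 to 0.53 with both drugs against ibrutinib, FCRL3 from -1.11 to 0.0073 with ibrutinib, and INPP5D from -0.099 to 0.015 with both drugs against ironomycin. The departures ran from -0.10 to 0.27 for PTPN6, -0.22 to 0.81 for FCRL2, -0.17 to 0.17 for FCRL5 and -0.12 to 0.31 for LILRB1.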

Other observations

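Some inhibitory receptors outside the 10 genes stood far higher in 1 line than in the other two, and they are named here after their values were seen. LAIR1, a collagen receptor, was at 193 to 264 CPM in the 4 MAVER1 libraries and at 4.26 CPM or less in the 8 libraries of the other lines. CD300A, a receptor for phospholipids exposed on dying cells, was at 62.6 to 69.9 CPM in JVM2 and at 0.166 CPM or less elsewhere. BTLA, which binds the TNF receptor family member HVEM, was at 25.4 to 41.4 CPM in JVM2 and at 0.0503 CPM or less elsewhere. With both drugs against control, LAIR1 was at 0.83 (SE 0.24, edgeR adjusted p = 0.0283), below the fold minimum, and CD300A and BTLA were not called.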
